A study of Mus musculus with 13 samples.

Results

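The genes described here carry out antigen presentation by MHC class I: the heavy chains H2-K1 and H2-D1, their light chain B2m, the peptide-loading genes Tap1, Tap2 and Tapbp, the immunoproteasome subunits Psmb8, Psmb9 and Psmb10, and the class I transactivator Nlrc5. They were chosen by name, as 10 of the 36287 genes in the deposited table, and all 10 passed the filter on low counts. Their transcripts were measured by mRNA sequencing of whole hippocampus from 5xFAD mice. In these mice, transgenes bearing mutations of familial Alzheimer's disease are driven in neurons by the Thy1 promoter, and amyloid plaques develop. The animals had been given ACLP-NT, an agent whose name is all the sources used here give of it (n = 5, animals 17, 27, 49, 53 and 55), the antibody Aducanumab, which binds aggregated amyloid beta (n = 4, animals 24, 50, 56 and 58), or saline (n = 4, animals 18, 19, 32 and 38). All 3 groups carry the transgenes and no wild-type library was among those analysed, so every comparison was made within 5xFAD mice. Saline-treated mice were the reference for each treatment, and ACLP-NT was also compared with Aducanumab. The sources used here give no age, sex, dose or treatment time.

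MHC class I molecules display peptides from inside the cell on its surface. The proteasome cuts cytosolic proteins, the TAP transporter moves the peptides into the endoplasmic reticulum, and tapasin helps load them onto a heavy chain paired with beta-2-microglobulin. Interferon gamma raises the whole set: it induces 3 catalytic subunits that take the place of the constitutive ones to form the immunoproteasome, and it induces NLRC5, which drives transcription of class I genes. In the adult brain microglia and endothelial cells carry much of the class I protein, and neurons carry less.

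The promoters of the heavy chains, of B2m, and the interval between Psmb9 and Tap1 are shown as a description. Their part in the levels of these transcripts was not tested. Sequences are RefSeq's, build GRCm38.p6, printed 5′ to 3′ and ending at the base before the annotated start. Capitals mark letters that matched a searched motif on either strand, so that ATTGG is CCAAT on the other strand. The H2-K1 window is chr17:34000348-34000597 (minus strand), the H2-D1 window chr17:35262844-35263093 (plus strand) and the B2m window chr2:122147437-122147686 (plus strand), each of 250 bases. The last is chr17:34187331-34187555, printed on the plus strand, the 225 bases between the start of Psmb9 on its left and the start of Tap1 on its right.
H2-K1: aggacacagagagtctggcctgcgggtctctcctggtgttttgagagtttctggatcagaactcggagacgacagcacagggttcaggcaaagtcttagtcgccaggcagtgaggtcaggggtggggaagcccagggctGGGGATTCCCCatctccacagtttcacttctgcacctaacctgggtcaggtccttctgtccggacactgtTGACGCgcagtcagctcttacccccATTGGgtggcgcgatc
H2-D1: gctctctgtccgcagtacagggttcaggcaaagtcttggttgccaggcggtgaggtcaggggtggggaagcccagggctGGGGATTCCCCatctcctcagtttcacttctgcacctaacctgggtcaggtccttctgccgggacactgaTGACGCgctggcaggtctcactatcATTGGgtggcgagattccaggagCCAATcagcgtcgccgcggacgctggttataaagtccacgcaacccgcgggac
B2m: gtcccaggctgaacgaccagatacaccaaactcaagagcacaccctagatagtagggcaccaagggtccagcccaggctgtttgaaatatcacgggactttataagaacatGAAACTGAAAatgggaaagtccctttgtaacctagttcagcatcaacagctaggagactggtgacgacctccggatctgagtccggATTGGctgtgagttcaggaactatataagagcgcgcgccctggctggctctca
Psmb9 to Tap1: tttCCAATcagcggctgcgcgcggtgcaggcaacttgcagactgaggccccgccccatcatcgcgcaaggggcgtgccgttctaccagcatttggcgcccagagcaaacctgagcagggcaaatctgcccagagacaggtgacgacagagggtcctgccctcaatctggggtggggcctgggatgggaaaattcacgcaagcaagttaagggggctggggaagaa

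The heavy chain promoters were close copies of each other. Over 190 aligned bases without gaps they were 87.4% identical, with annotated starts 60 bases apart. Both held the kappa B element, searched only as the exact letters of the first run of capitals in each. Those letters were held by 0.0304% of 32851 promoter windows of this length. That share is of this exact string and not of kappa B elements in general. Both also held the X2 box letters TGACGC, which 6.12% of the windows held. The first base of the X2 letters lay 70 bases after that of the kappa B element in both promoters, and the first base of the ATTGG letters lay 25 bases after that of the X2 letters in both. CCAAT letters were found in 6 of the 8 members with a window (33.8% of all windows). The B2m promoter held a match to the interferon-stimulated response element, searched as GAAA, any 2 bases and GAAA (2.98% of windows). The Psmb8 window held a match to the gamma-activated site, searched as TTC, any 3 bases and GAA (7.02% of windows). Sites that depart from the searched letters were not looked for. A window without a match, such as those of the heavy chains for these elements, may still hold such a site. Within a window no matches overlapped, and the CCAAT letters counted for Psmb9 and for Tap1 are the same site, read on opposite strands of the interval between them. Letters alone do not show that a factor binds, and no window was in hand for Tap2 and Nlrc5.

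Total counts per library ran from 53642019 to 64874729 in ACLP-NT, from 56858092 to 64431803 in Aducanumab and from 57513570 to 69734713 in saline. All 7 marker genes of hippocampal subfields, among them Prox1 of the dentate gyrus and Wfs1 of CA1, were detected in every library. They lay higher in ACLP-NT than in saline in 7 of 7 (median log2 fold change 0.23), where 10897 of 22065 genes tested did. An unadjusted edgeR p under 0.05 was reached by 4 of them (Prox1, Tdo2, Zbtb20 and Dsp), where 542 of all genes lay higher at that p. In ACLP-NT against Aducanumab 7 of 7 lay higher (median 0.12), 1 of them at that p, where 10500 and 338 of all genes did. In Aducanumab against saline 6 of 7 lay higher, where 11328 of all genes did. At that p 1 was higher and 1 lower, where 456 and 577 of all genes were. The summed CPM of the 7 subfield markers was 727 to 895 in ACLP-NT, 701 to 828 in Aducanumab and 582 to 813 in saline. The summed CPM of 6 choroid plexus markers, tissue that borders the hippocampus, ran from 78.6 to 4863 in ACLP-NT, from 76.5 to 4957 in Aducanumab and from 43.7 to 4851 in saline. The part of either list in the class I values was not tested. The labels number the animals but give no batch, and p-values measure only the spread between these samples. In bulk RNA, fewer cells of a type and less RNA per cell cannot be told apart.

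Levels of different genes were compared per length, as FPKM, fragment counts that the authors scaled to gene length and library total. B2m had the highest level, with a mean of 205 FPKM over the 13 libraries, followed by H2-D1 with 35.6 FPKM and H2-K1 with 19.99 FPKM. Psmb10 averaged 10.8 FPKM, Tapbp 8.79 FPKM and Tap2 3.65 FPKM. Psmb8 averaged 2.15 FPKM, Tap1 1.61 FPKM, Psmb9 0.792 FPKM and Nlrc5 0.471 FPKM. This order of FPKM levels held between neighbours in all 13 libraries, except that Psmb10 lay above Tapbp in 11 of 13 and Psmb9 above Nlrc5 in 12 of 13. The constitutive subunits were higher per length than the inducible ones that replace them: Psmb5 averaged 60.4 FPKM, Psmb6 24.4 FPKM and Psmb7 15.0 FPKM. The light chain stood at a near-constant multiple of the heavy chain: the B2m to H2-D1 ratio of FPKM was between 5.25 and 6.41 in every library, and the H2-D1 to H2-K1 ratio between 1.46 and 1.999.

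Hippocampi of mice given ACLP-NT had lower mean levels of all 10 genes than those given saline. Over the members the median of the log2 fold changes was -0.28, against -0.0015 over the 22065 genes tested, of which 50.6% lay below 0. No member passed edgeR's quasi-likelihood test with Benjamini-Hochberg adjustment over all genes at a threshold of 0.05, and neither did any other gene (0.0% called). At an unadjusted p under 0.05, 4 members lay lower (B2m, Tap2, Psmb9 and Psmb10), where 3.43% of all genes did. In Psmb9 alone of the 10 the groups did not overlap, where 1.33% of all genes were lower without overlap. DESeq2 called Psmb9 as 1 of 9 genes (0.0408% called). All 10 stayed lower with any of the 13 libraries left out, but the count at an unadjusted p under 0.05 ranged from 1 without saline 32 to 7 without ACLP-NT 49, and was 2 without ACLP-NT 27, without ACLP-NT 55 or without saline 19. Psmb9 was among them in each of the 13.

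**Figure D1:**
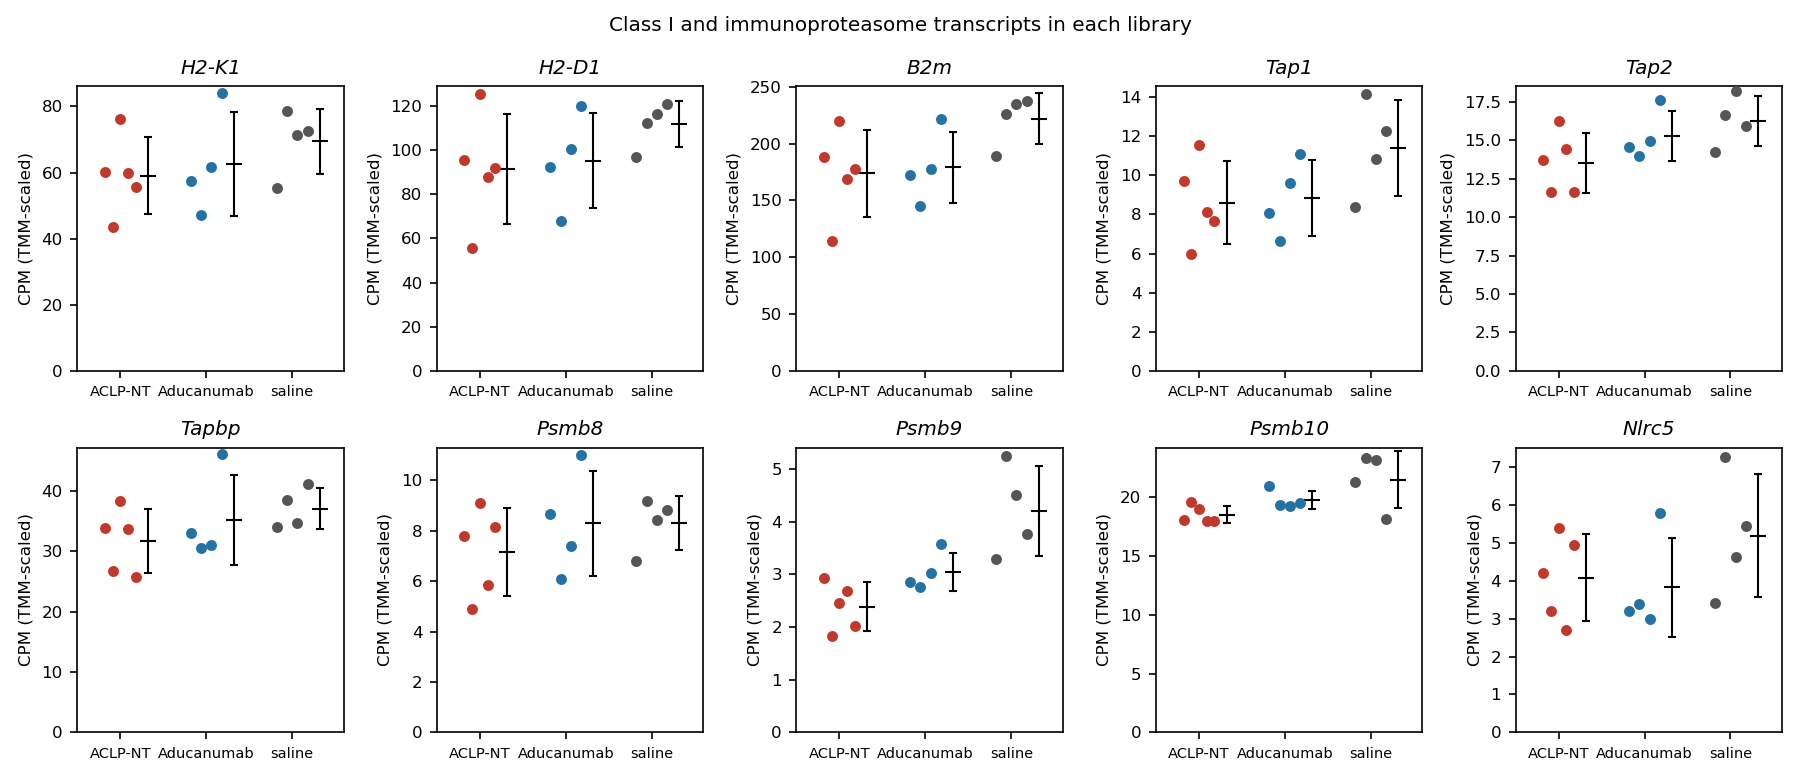
Normalised expression (CPM after TMM scaling, vertical axes starting at 0) of the 10 members, with 1 point for each library and the mean ± SD of each group beside it, for ACLP-NT (n = 5), Aducanumab (n = 4) and saline (n = 4). The Psmb9 points of ACLP-NT, at 1.83 to 2.94 CPM, all lie below those of saline, at 3.28 to 5.24 CPM, and the other members overlap.

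Psmb9 encodes the inducible beta1i subunit of the immunoproteasome, also called LMP2, which takes the place of the caspase-like subunit encoded by Psmb6. In the deposited table, whose build is not named, it lies at chr17:34400961-34406738 on the minus strand. Libraries are listed in the order of animals given above, and levels of 1 gene across libraries are CPM, counts scaled to library size after TMM. Psmb9 had 2.94, 1.83, 2.47, 2.69 and 2.02 CPM in ACLP-NT, 2.86, 2.75, 3.02 and 3.57 CPM in Aducanumab, and 3.28, 5.24, 4.51 and 3.76 CPM in saline. Every ACLP-NT library lay below every saline library, and of the Aducanumab libraries only animal 58 reached into the saline range. The means were 2.39 ± 0.460 CPM in ACLP-NT (SD, n = 5) and 4.20 ± 0.858 CPM in saline (SD, n = 4). The log2 fold change of ACLP-NT against saline was -0.81 (SE 0.174), with an unadjusted edgeR p of 0.000354, at rank 6 from the smallest of all genes, and an adjusted p of 0.722. DESeq2 gave -0.82 with an adjusted p of 0.0422. With 1 library left out at a time the edgeR value stayed between -0.91 and -0.69. Psmb9 is a low-count gene, with 112 to 325 counts per library, so counting error alone reached 9.45% in the lowest library. Its gene model overlaps that of Tap1, on the other strand, by 212 bases, and the sources used here do not say whether the counting used strand.

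Psmb8, the inducible chymotrypsin-like subunit (beta5i, LMP7), lies a short way downstream of Tap1 on chromosome 17. Psmb8 had 7.81, 4.88, 9.10, 5.86 and 8.15 CPM in ACLP-NT, 8.65, 6.10, 7.41 and 10.999 CPM in Aducanumab, and 6.80, 9.19, 8.43 and 8.81 CPM in saline. The groups overlapped widely, with the lowest value in ACLP-NT 27 and the highest in Aducanumab 58. The log2 fold change was -0.21 (SE 0.193, unadjusted p 0.286 by edgeR) for ACLP-NT against saline, and -0.10 without ACLP-NT 27.

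Psmb10, the inducible trypsin-like subunit (beta2i, MECL-1), lies on chromosome 8, away from the MHC. Psmb10 had 18.1, 19.6, 19.0, 18.0 and 18.0 CPM in ACLP-NT, 20.9, 19.4, 19.2 and 19.5 CPM in Aducanumab, and 21.3, 23.3, 23.2 and 18.1 CPM in saline. Within ACLP-NT it varied little, with a mean of 18.5 CPM and an SD of 0.728 CPM (n = 5), and the overlap with saline came from saline 38, which lay at the ACLP-NT level. The log2 fold change for ACLP-NT against saline was -0.21 (SE 0.0746, unadjusted p 0.0125 by edgeR, adjusted p 0.752), the same size as that of Psmb8 with a smaller error.

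Each inducible subunit was also set against the constitutive subunit it replaces, in the same library, which removes the library scaling. The ratio of Psmb9 to Psmb6 FPKM was 0.0299, 0.0188, 0.0248, 0.0278 and 0.0228 in ACLP-NT, 0.0279, 0.0266, 0.0314 and 0.0385 in Aducanumab, and 0.0309, 0.0579, 0.0454 and 0.0410 in saline. All ACLP-NT ratios lay below all saline ratios, with a log2 difference of -0.80 (SE 0.220). The exact two-sided permutation test gave p = 0.00794, the smallest it allows for 5 against 4 libraries, unadjusted among 9 such tests. This ratio repeats the Psmb9 difference rather than adding to it, since Psmb6 itself differed by -0.017 (SE 0.0572) on the log2 scale. For Aducanumab against saline the log2 difference of the same ratio was -0.47 (SE 0.222, exact permutation p 0.0857), and for ACLP-NT against Aducanumab it was -0.33 (SE 0.167, exact permutation p 0.0873). The Psmb8 to Psmb5 ratio averaged 0.0319 ± 0.00726 in ACLP-NT (n = 5), 0.0370 ± 0.00968 in Aducanumab (n = 4) and 0.0387 ± 0.00532 in saline (n = 4), as mean ± SD. The Psmb10 to Psmb7 ratio averaged 0.692 ± 0.0557 in ACLP-NT (n = 5), 0.711 ± 0.0562 in Aducanumab (n = 4) and 0.756 ± 0.126 in saline (n = 4). For these 2 ratios all groups overlapped, and the exact permutation p was between 0.175 and 0.686.

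**Figure D2:**
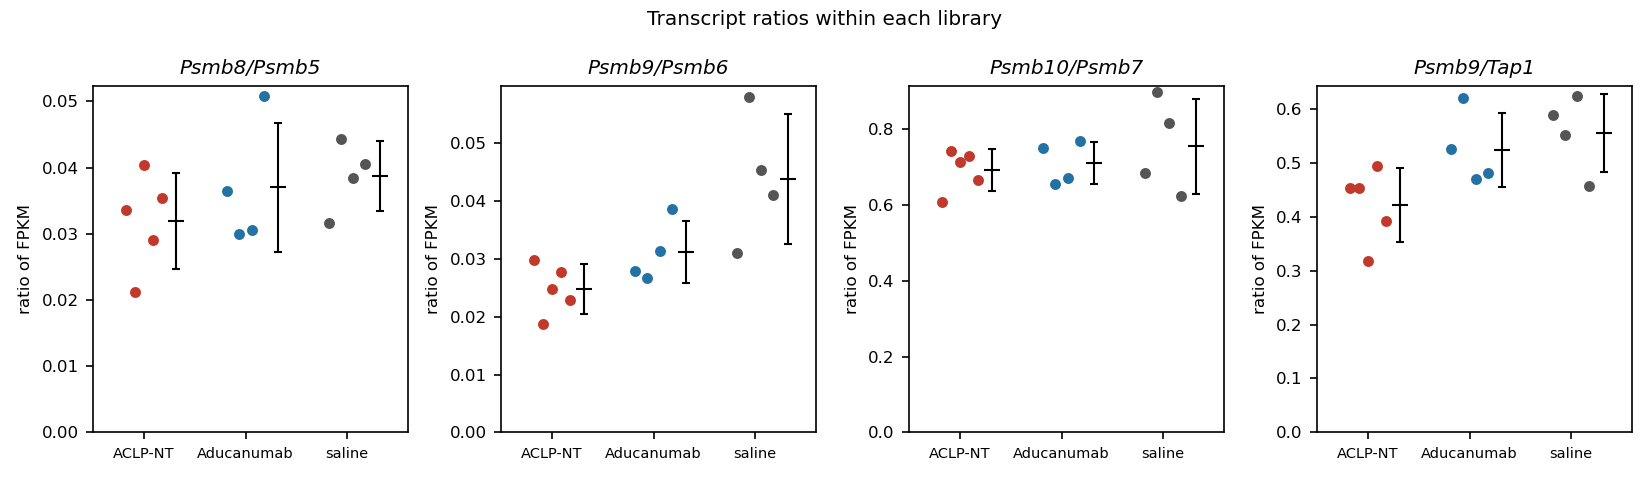
Ratio of FPKM of each inducible proteasome subunit to the constitutive subunit it replaces, and of Psmb9 to Tap1, with 1 point for each library and the mean ± SD of each group beside it, for ACLP-NT, Aducanumab and saline. The Psmb9 to Psmb6 ratio is at most 0.0299 in ACLP-NT and at least 0.0309 in saline, and the other ratios overlap.

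Psmb9 and Tap1 share the interval printed above. Tap1, which lies at chr17:34406527-34416199 on the plus strand of the table's unnamed build, encodes the TAP1 chain of the peptide transporter. Tap1 had 9.71, 5.996, 11.55, 8.11 and 7.65 CPM in ACLP-NT, 8.06, 6.63, 9.61 and 11.08 CPM in Aducanumab, and 8.37, 14.16, 10.82 and 12.25 CPM in saline. The groups overlapped: ACLP-NT 49 and Aducanumab 58 stood above saline 32, and saline 18 stood among the treated libraries. The log2 fold change for ACLP-NT against saline was -0.41 (SE 0.198, unadjusted p 0.0600 by edgeR). The Psmb9 to Tap1 ratio of FPKM averaged 0.422 ± 0.0689 in ACLP-NT (n = 5), 0.524 ± 0.0685 in Aducanumab (n = 4) and 0.555 ± 0.0720 in saline (n = 4), as mean ± SD. The log2 difference of ACLP-NT against saline was -0.40 (SE 0.149), and the groups overlapped. This ratio was chosen after the values were seen and was not tested.

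Tap2 encodes the other chain of the transporter and lies at chr17:34422501-34435295 in the table. Tap2 had 13.7, 11.6, 16.3, 14.4 and 11.6 CPM in ACLP-NT, 14.5, 13.9, 14.9 and 17.6 CPM in Aducanumab, and 14.2, 16.7, 18.2 and 15.9 CPM in saline. Of the ACLP-NT libraries, 49 lay within the saline range and 53 just inside it, and the other 3 lay below it. The log2 fold change was -0.26 (SE 0.112, unadjusted p 0.0334 by edgeR). Tapbp encodes tapasin, which holds the empty class I molecule at the transporter. It ranged from 25.7 to 38.3 CPM in ACLP-NT, from 30.5 to 46.1 CPM in Aducanumab and from 33.9 to 41.1 CPM in saline. The groups overlapped, and the log2 fold change of ACLP-NT against saline was -0.23 (SE 0.136, unadjusted p 0.118 by edgeR). Tapbp shares 3422 bases with Zbtb22 on the same strand, a gene with a mean of 1706 counts, and the sources used here do not say how shared reads were assigned.

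B2m, the light chain common to all class I molecules, lies on chromosome 2. B2m had 188, 115, 219.6, 169 and 178 CPM in ACLP-NT, 172, 145, 177 and 221 CPM in Aducanumab, and 189, 226, 235 and 237 CPM in saline. Of the treated libraries, ACLP-NT 49 and Aducanumab 58 reached into the saline range, and saline 18 was the lowest of its group. The means were 174 ± 38.3 CPM in ACLP-NT (SD, n = 5) and 222 ± 22.3 CPM in saline (SD, n = 4), with a log2 fold change of -0.35 (SE 0.154, unadjusted p 0.0383 by edgeR, adjusted p 0.806). Without ACLP-NT 27, the lowest library, the log2 fold change was -0.23.

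H2-D1 and H2-K1, the classical heavy chains that present peptides to CD8+ T cells, lie on chromosome 17 and have near-identical relatives whose reads the counting may have split. H2-D1 had 95.7, 55.7, 125.6, 87.8 and 92.1 CPM in ACLP-NT, 92.5, 67.9, 100.4 and 119.9 CPM in Aducanumab, and 97.1, 112.5, 116.4 and 120.9 CPM in saline. ACLP-NT held both the lowest and the highest of the 13 values. H2-K1 had 60.1, 43.6, 76.2, 59.8 and 55.7 CPM in ACLP-NT, 57.3, 47.1, 61.6 and 84.2 CPM in Aducanumab, and 55.5, 78.6, 71.3 and 72.7 CPM in saline. The groups overlapped in both genes. For ACLP-NT against saline the log2 fold changes were -0.29 (SE 0.188, unadjusted p 0.145 by edgeR) for H2-D1 and -0.23 (SE 0.167, unadjusted p 0.181 by edgeR) for H2-K1. Without ACLP-NT 27 they were -0.16 and -0.14.

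Nlrc5 encodes the transactivator that is recruited to class I promoters. It lies on chromosome 8 and was the lowest of the members per length. Nlrc5 had 4.20, 3.19, 5.38, 2.69 and 4.94 CPM in ACLP-NT, 3.19, 3.38, 2.98 and 5.77 CPM in Aducanumab, and 3.41, 7.27, 4.62 and 5.45 CPM in saline. Each group held low and high libraries, and saline 19 stood alone at the top. The log2 fold change of ACLP-NT against saline was -0.34 (SE 0.262, unadjusted p 0.209 by edgeR), and without saline 19 it was -0.14.

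**Figure D3:**
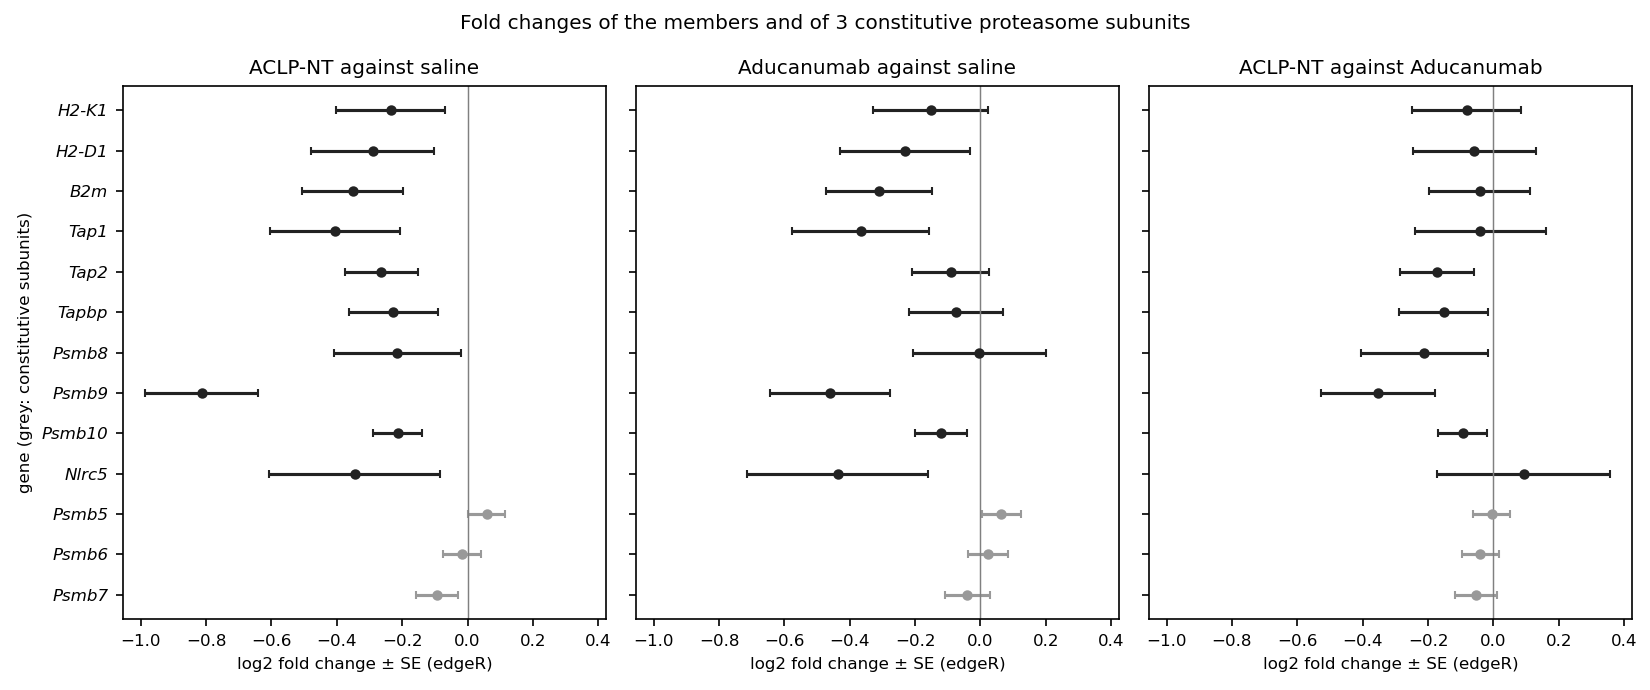
Log2 fold change ± SE by edgeR of the 10 members and, in grey, of the constitutive subunits Psmb5, Psmb6 and Psmb7, in ACLP-NT against saline, Aducanumab against saline and ACLP-NT against Aducanumab. In ACLP-NT against saline all members lie left of 0, from -0.81 for Psmb9 to -0.21 for Psmb8 and Psmb10, while the constitutive subunits lie between -0.093 and 0.058.

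Aducanumab against saline gave the same direction, with smaller differences in all members but Nlrc5. It shares its saline libraries with the comparison above, so the values stand side by side and are not independent of it. All 10 members lay lower. The median of their log2 fold changes was -0.19, while 48.7% of all genes lay below 0. None passed in edgeR after adjustment (0.0% of all genes called), and 1, Psmb9, lay lower at an unadjusted p under 0.05, where 2.62% of all genes did. DESeq2 called 18 genes (0.0816%) and none of the members. In no member were the groups without overlap, where 1.41% of all genes were lower without overlap. Psmb9 averaged 3.05 ± 0.363 CPM in Aducanumab (SD, n = 4) and 4.20 ± 0.858 CPM in saline (SD, n = 4), with a log2 fold change of -0.46 (SE 0.183, unadjusted p 0.0250 by edgeR). Nlrc5 had -0.44 (SE 0.278), Tap1 -0.37 (SE 0.210) and B2m -0.31 (SE 0.163) on the log2 scale. H2-D1 had -0.23, H2-K1 -0.15, Psmb10 -0.12, Tap2 -0.091 and Tapbp -0.075 on the same scale. Psmb8 averaged 8.29 ± 2.08 CPM in Aducanumab (SD, n = 4) and 8.31 ± 1.05 CPM in saline (SD, n = 4), which is -0.0033 on the log2 scale.

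The Aducanumab group was divided by its libraries. Aducanumab 58 was the highest of all 13 in Tapbp, Psmb8 and H2-K1, and Aducanumab 50 was the lowest of its group in 8 members. Without Aducanumab 58 the median log2 fold change of the members was -0.34 and 4 members lay lower at an unadjusted p under 0.05 (B2m, Nlrc5, Psmb9 and Tap1). Without Aducanumab 50 the median was -0.11, 9 of 10 lay lower and none had such a p. None had one without Aducanumab 24, saline 19 or saline 32 either, 3 had one without saline 18, and 2 had one without saline 38 or without ACLP-NT 27. Aducanumab 58 also stood apart in several other lists. The summed CPM of 5 blood markers was 361 there and 122 to 226 in the other Aducanumab libraries. That of 5 meningeal fibroblast markers was 173 there and 43.0 to 113 in the others. For 4 border macrophage markers it was 20.6 there and 4.75 to 11.4 in the others. For 5 neuron markers it was 3308 there and 4144 to 4432 in the others. The 5 MHC class II genes summed to 69.8 there and 21.0 to 36.4 in the others. The part of these lists in the class I values was not tested.

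ACLP-NT against Aducanumab gave no member past any of the tests. In 9 of 10 the ACLP-NT mean was lower. The median of the log2 fold changes was -0.088, while 52.4% of all genes lay below 0. None passed in edgeR (0.0% of all genes called), none had an unadjusted p under 0.05 (1.71% of all genes were lower at that p), none was without overlap (0.644% of all genes were lower without overlap), and DESeq2 called 3 genes (0.0136%), no member among them. Psmb9 again had the largest difference of the 10, with 2.39 ± 0.460 CPM in ACLP-NT (SD, n = 5), 3.05 ± 0.363 CPM in Aducanumab (SD, n = 4) and a log2 fold change of -0.35 (SE 0.175, unadjusted p 0.0628 by edgeR). Psmb8 had -0.21 (SE 0.193), Tap2 -0.17 (SE 0.112) and Tapbp -0.15 (SE 0.137) on the log2 scale. The class I chains and Tap1 lay between -0.082 and -0.040, and Nlrc5 was at 0.093 (SE 0.264). Without Aducanumab 58 the median was 0.040 and 4 of 10 lay lower, and 5 of 10 lay lower without ACLP-NT 27, with a median of -0.041, so the direction rested on these libraries. The median was -0.19 without Aducanumab 50 and without ACLP-NT 49.

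Across the 13 libraries the members varied together, within groups as well as between them. Over the 45 pairs the median Pearson r of log2 CPM was 0.75 and the median Spearman rho 0.73, and 33 pairs passed a permutation test (100000 resamples, Benjamini-Hochberg adjusted over the 45 pairs, threshold 0.05) by r and 33 by rho. No such count was made for pairs of other genes, so no background share stands beside it, and marker lists given below also varied with the members. The closest pair was H2-D1 and B2m with r = 0.97. After each group was centred on its own mean the median r was 0.71, and without the 2 libraries farthest from the median it was also 0.71. The CPM were scaled for library depth, but all members share that scaling, and 7 of 10 lie on chromosome 17. Psmb10 stood apart: its 9 pairs had a median r of 0.24, and -0.037 after centring, while the 36 pairs without it had a median of 0.78. Psmb10 and Tapbp had the lowest r, 0.18. Against the mean of the other 9 members, H2-K1 and Tap1 had r = 0.95, B2m 0.94, H2-D1 0.90, Tap2 0.85, Psmb8 0.84, Tapbp 0.81, Psmb9 0.76, Nlrc5 0.71 and Psmb10 0.35.

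**Figure D4:**
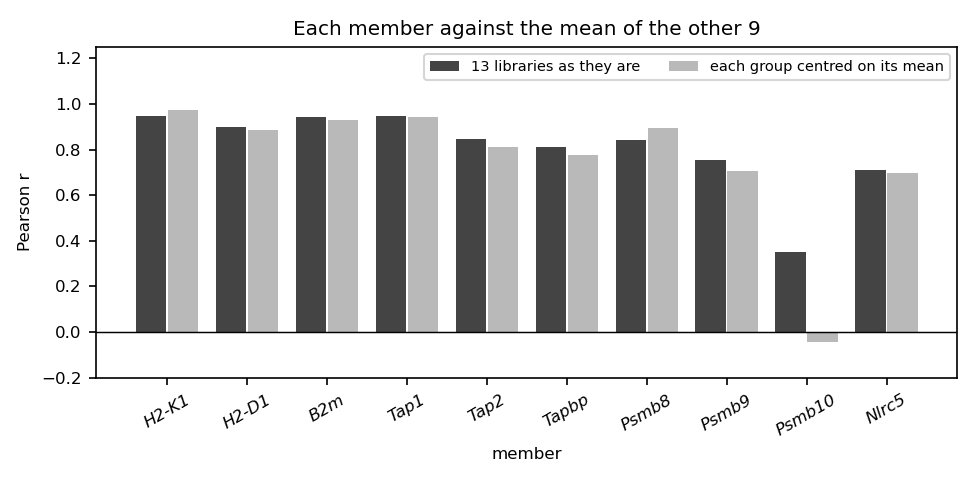
Pearson r over 13 libraries between log2 CPM of each member and the mean of the other 9, as bars starting at 0, with the libraries as they are (dark) and with each group centred on its mean (light). Psmb10 stands apart at 0.35 and -0.042, and the other members lie between 0.70 and 0.97.

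A score per library, the mean of the centred log2 CPM of the 10 members, put the shared variation in order. It ran from -0.51 to 0.18 in ACLP-NT, from -0.28 to 0.31 in Aducanumab and from -0.058 to 0.39 in saline. The lowest library was ACLP-NT 27, which held the lowest value in 6 of the 10 members. The highest was saline 19, which held the highest value in 4. Both treated groups held a library within the saline range of the score (ACLP-NT 17 and 49, Aducanumab 58).

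Other transcripts varied with the members from library to library. The summed CPM of 17 interferon response genes was 112 to 253 in ACLP-NT, 144 to 199.9 in Aducanumab and 163 to 234 in saline, lowest in ACLP-NT 27 and highest in ACLP-NT 49. Against saline 17 of 17 lay lower in ACLP-NT (median log2 fold change -0.30), where 50.6% of all genes did. An unadjusted edgeR p under 0.05 was reached by 4 of them, where 3.43% of all genes were lower at that p. In Aducanumab 16 of 17 lay lower than in saline (median -0.24), where 48.7% of all genes did, and 3 at that p, where 2.62% did. The summed CPM of 7 microglia markers was 601 to 849 in ACLP-NT, 703 to 849 in Aducanumab and 838 to 1014 in saline, and that of 7 markers of plaque microglia was 205 to 323 in ACLP-NT, 257 to 347 in Aducanumab and 308 to 404 in saline. All of these markers were detected in every library. In ACLP-NT against saline 7 of 7 microglia markers lay lower (median log2 fold change -0.31), 6 of them at an unadjusted edgeR p under 0.05. For plaque microglia 7 of 7 did (median -0.51), 5 at that p, where 3.43% of all genes were lower at it. Groups did not overlap in 2 microglia and 3 plaque microglia markers, where 1.33% of all genes were lower without overlap. In Aducanumab against saline 7 of 7 of each list lay lower (medians -0.23 and -0.25). At that p 3 and 2 of them did, where 2.62% of all genes did. The summed CPM of 5 astrocyte markers, among them Gfap and Aqp4, was 1812 to 2420 in ACLP-NT, 2203 to 2676 in Aducanumab and 2214 to 2992 in saline, and 5 of 5 lay lower in ACLP-NT and 4 of 5 in Aducanumab than in saline. Over the 13 libraries the mean centred log2 CPM of a list had r with the member score of 0.89 for the interferon response (rho 0.90, and r 0.83 without the 2 farthest libraries), 0.80 for microglia (rho 0.79, r 0.68) 0.76 for plaque microglia (rho 0.73, r 0.60) and 0.70 for astrocytes (rho 0.59, r 0.52), given as a description. Gbp2 and Irgm1 of the interferon list recur below among the single genes most like the members. For the 5 MHC class II genes r was 0.77 (rho 0.68, r 0.63) and for neurons -0.68 (rho -0.61, r -0.58). The hippocampal subfields had -0.47 (rho -0.41, r -0.20) and the choroid plexus 0.17 (rho 0.26, r 0.0084). With each group centred on its mean, r was 0.88 for the interferon response, 0.69 for microglia, 0.64 for plaque microglia and 0.57 for astrocytes. It was 0.73 for class II, -0.71 for neurons, -0.15 for the subfields and 0.50 for the choroid plexus. The part of microglial, astrocyte or neuronal content in the class I differences was not tested.

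Lymphocytes, the partners of class I in immune surveillance, were near the limit of detection. The summed CPM of 10 T and NK cell markers was 0.840 to 1.65 in ACLP-NT, 0.593 to 3.01 in Aducanumab and 1.15 to 2.05 in saline, and 8 of the 10, among them Cd3d, Cd3e, Cd3g and Cd8b1, were at 0 in some library. The 5 of them with counts enough to be tested had r = 0.59 with the member score over the 13 libraries (rho 0.67, r 0.60 without the 2 farthest), and their part in the class I values was not tested. The 6 endothelial and pericyte markers summed to 221 to 271 CPM in ACLP-NT, 235 to 307 CPM in Aducanumab and 241 to 288 CPM in saline, with all groups overlapping. Their r with the member score was 0.46 (rho 0.48, r 0.26 without the 2 farthest).

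**Figure D5:**
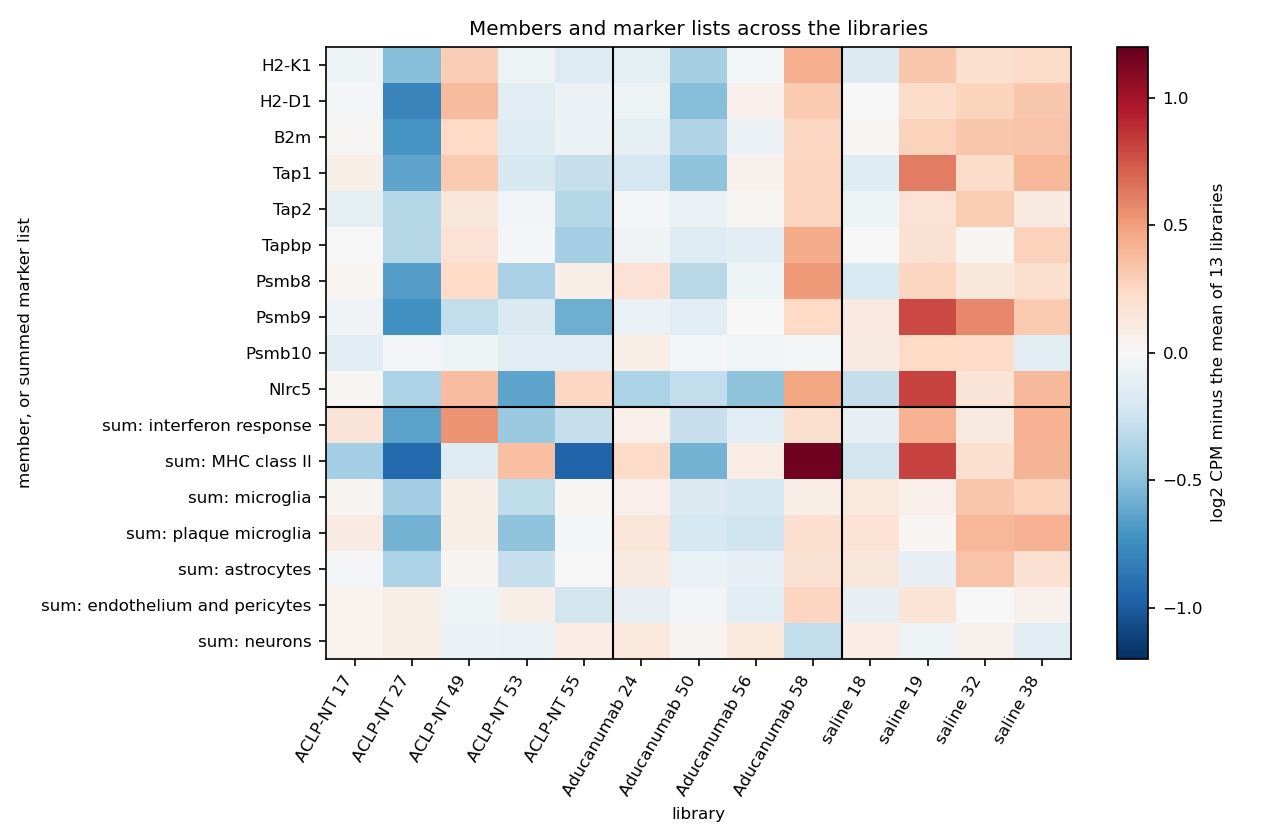
Log2 CPM minus the mean of the 13 libraries, in colour from blue (lower) to red (higher), for the 10 members (upper rows) and for summed marker lists (lower rows), with ACLP-NT, Aducanumab and saline libraries from left to right. ACLP-NT 27 is blue in most members and in the interferon and microglia sums, saline 19 and Aducanumab 58 are red in most members, and the Psmb10 row is pale throughout.

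The 10 genes outside the set whose log2 CPM was most like the member score, of 13521 with a mean count of at least 100, had r from 0.90 to 0.94 over the 13 libraries, where the median of all candidates was -0.011 and 2.81% had an r above 0.7. They were Hk3, a hexokinase of myeloid cells (0.94), the galectin Lgals9 (0.94), the interferon-inducible GTPases Gbp2 (0.93) and Irgm1 (0.91), Unc93b1, which escorts endosomal Toll-like receptors (0.92), and the interferon gamma receptor chain Ifngr1 (0.92). The others were the non-classical class I gene H2-T23 (0.92), the chemerin receptor Cmklr1 (0.91), the class II loading chain H2-DMb1 (0.90) and the proton pump subunit Tcirg1 (0.90).

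The other genes of the pathway did not share one direction in ACLP-NT against saline. None of those tested passed in edgeR after adjustment. Of 9 further class I genes, 5 lay lower (median log2 value -0.13), where 50.6% of all genes did. At an unadjusted edgeR p under 0.05, 1 lay lower, where 3.43% of all genes did. That was H2-T23, which encodes the Qa-1 molecule read by NK receptors, with 15.2 ± 3.27 CPM in ACLP-NT (SD, n = 5), 20.3 ± 4.54 CPM in saline (SD, n = 4) and a log2 fold change of -0.41 (SE 0.192). The non-classical genes H2-T24 and H2-M3 had -0.15 and -0.13 on the log2 scale. Of 11 genes of peptide supply and loading, 5 lay lower and 6 higher, where 50.6% of all genes lay lower. Calr, the chaperone calreticulin of the loading complex, had 337 ± 35.3 CPM in ACLP-NT (SD, n = 5) and 292 ± 26.6 CPM in saline (SD, n = 4), which is 0.21 on the log2 scale (SE 0.0810, unadjusted p 0.0239 by edgeR), the opposite sign to the members. Psme1, a subunit of the interferon-inducible proteasome activator PA28, had -0.19 (SE 0.0777, unadjusted p 0.0278 by edgeR), and its partner Psme2 had -0.26 (SE 0.177). Pdia3, the disulfide isomerase of the loading complex, had 0.14 and the trimming peptidase Erap1 -0.024 on the log2 scale.

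The constitutive proteasome lay near 0 in both comparisons with saline. Of 14 genes of its 20S core, 8 lay lower and 6 higher in ACLP-NT than in saline (median log2 value -0.0054), where 50.6% of all genes lay lower. None of the 14 had an unadjusted edgeR p under 0.05. The values ran from -0.093 for Psmb7 (SE 0.0642) to 0.086 for the alpha ring subunit Psma4 (SE 0.0625). In Aducanumab against saline 7 lay lower and 7 higher, where 48.7% of all genes lay lower. Psma3 was at -0.068 and Psma4 at 0.071 on the log2 scale.

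Of 15 further transcription factors of class I genes, 8 lay lower in ACLP-NT than in saline, where 50.6% of all genes did. Irf8, an interferon regulatory factor that microglia express, had 19.0 ± 3.71 CPM in ACLP-NT (SD, n = 5), 19.5 ± 2.46 CPM in Aducanumab (SD, n = 4) and 25.3 ± 2.91 CPM in saline (SD, n = 4). The ACLP-NT and saline libraries did not overlap, with a log2 fold change of -0.41 (SE 0.137, unadjusted p 0.00961 by edgeR). Aducanumab against saline gave -0.37 for Irf8 (SE 0.146, unadjusted p 0.0223 by edgeR), with overlap. Irf1, which interferon gamma induces, had -0.23 in ACLP-NT against saline (SE 0.131). Rfx5, of the complex that binds the X box, had -0.069 (SE 0.0680), and the CCAAT-binding subunits Nfyc and Nfyb had 0.13 (SE 0.0598, unadjusted p 0.0474 by edgeR) and -0.025 on the log2 scale.

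Upstream of these, 5 of 7 receptor and kinase genes of interferon signalling lay lower in ACLP-NT than in saline, where 50.6% of all genes did. None had an unadjusted edgeR p under 0.05. Ifngr1, which binds interferon gamma, had -0.22 (SE 0.112, unadjusted p 0.0668 by edgeR) and the type I receptor chain Ifnar1 -0.087 (SE 0.0455). In Aducanumab against saline Ifnar1 averaged 45.2 ± 1.08 CPM in Aducanumab (SD, n = 4) and 50.6 ± 2.71 CPM in saline (SD, n = 4) without overlap, which is -0.17 on the log2 scale (SE 0.0480, unadjusted p 0.00401 by edgeR), while the kinase Jak1 had 0.041.

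Of the 7 genes listed as receptors and partners of class I, not all of which are known to bind it, 4 had counts enough to be tested. Pirb, an inhibitory receptor that binds class I molecules, had 0.552 ± 0.164 CPM in ACLP-NT (SD, n = 5), 0.909 ± 0.384 CPM in Aducanumab (SD, n = 4) and 1.02 ± 0.138 CPM in saline (SD, n = 4). The ACLP-NT and saline libraries did not overlap, with a log2 fold change of -0.88 (SE 0.329, unadjusted p 0.0186 by edgeR). Against Aducanumab it was -0.71 (SE 0.330, unadjusted p 0.0485 by edgeR), with overlap. Lilrb4a, an inhibitory receptor of the same family, had 8.37 ± 2.51 CPM in ACLP-NT (SD, n = 5) and 13.3 ± 3.16 CPM in saline (SD, n = 4), which is -0.67 on the log2 scale (SE 0.248, unadjusted p 0.0179 by edgeR). Cd8a, a chain of the T cell co-receptor for class I, averaged at most 0.340 CPM in any group.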

How the data were processed

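Poly(A)-selected mRNA of whole hippocampus was sequenced from 13 5xFAD mice in 3 groups (ACLP-NT 5, Aducanumab 4, saline 4). The deposited table holds, per the file headers, raw counts per gene and FPKM values for each library. The counts were deposited by the authors as whole numbers without normalization, and for FPKM the authors divided fragment counts by gene length and library size. Per the submitters' processing notes, the tools were HISAT2 2.0.4, cutadapt 1.9, edgeR (no version) and StringTie 1.3.4d. Genome build, annotation and counting program: not given in the sources used here.

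From the counts, genes were filtered by filterByExpr (22065 of 36287 kept), scaled by TMM and fitted in edgeR 4.0.16 by quasi-likelihood with all 3 groups in 1 fit. Adjustment was Benjamini-Hochberg over all genes tested, and the threshold was 0.05. SE is the size of the log2 fold change over the square root of F. The common biological coefficient of variation was 0.226. Tests are two-sided. The count fit was run on simulated counts as a check of the procedure. That run does not show that differences as small as those of the members can be detected. Subunit ratios were taken from FPKM and compared by exact permutation. Correlations used log2 CPM with a prior count of 2. Promoter letters were searched on both strands of the 250 bases before RefSeq starts.

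The members, lists and naming rule were chosen with earlier results of these data known. The rule names every member, a set of pathway genes, the 2 genes of each pathway list with the smallest p against saline, and the 10 genes most like the members. Alternatives were RLE and upper quartile scaling, no filter, DESeq2 1.42.0, limma 3.58.1 on log2(FPKM + 1) and log2(FPKM + 0.1), a robust fit, only the 2 groups compared, and each library left out. The result of 1 gene that the rule names is not reported here.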

Additional observations from a re-analysis of the deposited data

Results flagged for a closer look

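Of 39 sets of values tested for a library far from the rest of its group (CPM of the 10 members and the 3 ratios of inducible to constitutive subunits, each in 3 groups of 4 or 5), 3 were marked by Dixon's test, which marks about 1 in 20 by chance. Tapbp was 46.1 CPM in Aducanumab 58, where the other 3 Aducanumab libraries had 30.5 to 33.0 CPM. Nlrc5 was 5.77 CPM in the same library, where the others had 2.98 to 3.38 CPM. Psmb10 was 20.9 CPM in Aducanumab 24, where the others had 19.2 to 19.5 CPM.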

How the results depend on the processing

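No paired analysis was possible because no animal number occurs in more than 1 group. The count of genes called by edgeR was 0 in each of the 3 comparisons. DESeq2 called 9 in ACLP-NT against saline, 1 of them a member (Psmb9), 18 in Aducanumab against saline and 3 in ACLP-NT against Aducanumab (4933407K13Rik, Rnasek and Smoc1, named after their values were seen). With 1 library left out edgeR called 0 to 1 genes in each comparison: Nav2 against saline without saline 32, and 4933407K13Rik in both comparisons with Aducanumab without ACLP-NT 49. The members' median log2 fold change ranged from -0.38 to -0.22 in ACLP-NT against saline, from -0.34 to -0.11 in Aducanumab against saline and from -0.19 to 0.040 in ACLP-NT against Aducanumab over the 13 fits without 1 library. Single members changed sign in Aducanumab against saline for Psmb8 (-0.17 to 0.12), and in ACLP-NT against Aducanumab for H2-K1 (-0.20 to 0.095), H2-D1 (-0.20 to 0.079), B2m (-0.14 to 0.079), Tap1 (-0.16 to 0.087), Tapbp (-0.23 to 0.0064) and Nlrc5 (-0.022 to 0.36). The log2 ratio of Psmb8 to Psmb5 ranged from -0.25 to 0.0014 and that of Psmb10 to Psmb7 from -0.16 to 0.014 in Aducanumab against saline, and Psmb10 to Psmb7 from -0.079 to 0.0054 in ACLP-NT against Aducanumab. The cause was not tested. Over the other settings, in each case smallest under limma on log2(FPKM + 1), ACLP-NT against saline ran from -0.82 to -0.36 for Psmb9, -0.41 to -0.26 for Tap1 and -0.35 to -0.11 for Nlrc5, Aducanumab against saline from -0.47 to -0.21, -0.37 to -0.23 and -0.44 to -0.14 for the same genes, and ACLP-NT against Aducanumab from -0.35 to -0.15 for Psmb9 and from 0.028 to 0.097 for Nlrc5. In all, 266 summary and 611 single-gene values kept direction and side of the threshold. Of the rest, 9 summary values moved, 3 summary and 18 single-gene values reversed direction, and 1 single-gene value was stronger. Those counted as moved include the members' median in ACLP-NT against Aducanumab, which changed sign, to 0.040, without Aducanumab 58. Depth limits Psmb9 and Nlrc5 most, with counting errors of 9.45% and 8.33% in their lowest libraries.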

Other observations

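The class II genes were measured beside the class I set. The summed CPM of H2-Aa, H2-Ab1, H2-Eb1, Cd74 and Ciita was 16.0 to 39.9 in ACLP-NT, 21.0 to 69.8 in Aducanumab and 26.8 to 54.6 in saline. All 5 lay lower in ACLP-NT than in saline (median of the log2 fold changes -0.58), where 50.6% of all genes did. At an unadjusted edgeR p under 0.05, 1 of them lay lower, where 3.43% of all genes did. In Aducanumab against saline 2 of 5 lay lower, with a median of 0.028, where 48.7% of all genes lay lower. In ACLP-NT against Aducanumab 4 of 5 lay lower, with a median of -0.68, where 52.4% of all genes lay lower. At an unadjusted edgeR p under 0.05, 1 lay lower, where 1.71% of all genes did. None passed after adjustment in edgeR.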
